A study of Mus musculus with 24 samples.

Results

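Of the 55487 distinct genes in the count table, 6 long noncoding RNAs were examined here, found by symbol: Malat1, Neat1, Mir99ahg, Kcnq1ot1, Gas5 and Snhg1. They were chosen by their abundance among noncoding transcripts, and for 3 of them (Malat1, Mir99ahg and Kcnq1ot1) also by their lower levels with MLL-ENL at P28. Differences between MLL-ENL and WT cells at P28 are therefore given for the 6 RNAs as a description, without a p-value. All 6 passed the filter on low counts, as did 23059 genes in all.

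The study used mice in which a Tet-off system controls a human MLL::ENL fusion transgene (ME), an oncogene of infant leukemia, and sequenced RNA of sorted blood-forming progenitors. The 6 groups of 4 libraries were P0 WT, P0 ME and 4 groups at P28: WT, ME induced at E10.5, ME induced at P0, and ME labelled RLT Vav Txp, whose titles also give E10.5 induction. P0 ME was induced at E10.5 as well. E10.5 is an embryonic day, and P0 and P28 are postnatal days. The titles call the cells LSK (lineage-negative, Sca-1-positive, KIT-positive), while the design text names a lineage-negative, KIT-positive sort. P0 cells came from liver and P28 cells from bone marrow, so age and tissue cannot be told apart. The labels do not expand RLT Vav Txp, do not name the driver of the transactivator, and give WT no further genotype. The human transgene is no feature of the mouse annotation, and its level was not analysed here. Replicates are described in the design text as biological. RLT Vav Txp libraries carry no replicate number and are numbered here in the order listed.

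Long noncoding RNAs differ widely in where they act. Malat1 collects in nuclear speckles, domains rich in splicing factors, and Neat1 is the scaffold around which paraspeckles, another nuclear body, assemble. Kcnq1ot1 is an imprinted transcript made from the paternal chromosome that runs antisense through Kcnq1 and silences neighbouring genes in cis, among them Cdkn1c, a cell-cycle inhibitor tied to stem cell quiescence. Mir99ahg is the host transcript of miR-99a, let-7c and miR-125b, microRNAs long studied in blood stem cells and leukemia. Gas5 and Snhg1 carry small nucleolar RNAs (snoRNAs) in their introns. Their spliced transcripts begin with a pyrimidine tract like those of ribosomal protein mRNAs (5′ TOP genes), and are turned over by nonsense-mediated decay. In bulk RNA, fewer cells of a type and less RNA per cell cannot be told apart.

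Libraries held 31233688 to 89774511 counts, so 1 CPM (a count scaled to library size) was at least 31.2 reads and counting error was small beside the spread between libraries. By plain library totals, Kit was at 609 CPM or more in every P28 library, and Ly6a, which encodes Sca-1, at 167 or more. At P0 the lowest Kit values were 139 CPM in WT and 425 in ME, and the lowest Ly6a values 82.4 and 67.2. The marker sums use the same scale. The P0 groups were mixed: the sum of 8 neutrophil markers ran from 916 to 14808 CPM over P0 WT and from 889 to 33549 over P0 ME, against 744 to 970 in P28 WT. Replicate 1 of each P0 group had the low neutrophil value, and P0 WT replicate 1 had the highest mast cell or basophil sum (10938 CPM). In the RLT Vav Txp group, 8 macrophage markers summed to 660 to 2632 CPM, against 60.4 to 79.6 in P28 WT, and 8 LSK markers to 2088 to 2842, against 4508 to 5313. The P0 groups reached such values too: macrophage sums were 115 to 1390 CPM in P0 WT and 91.0 to 1563 in P0 ME. Their LSK sums were 1824 to 4826 and 2094 to 5412. No marker of either list was at 0. The part of this cell mixture in the results below was not tested.

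The 3 microRNAs inside Mir99ahg are shown with the seed (bases 2 to 8) in capitals, because it sets which mRNAs they bind. The mature sequences are RefSeq's on GRCm38.p6, all on the plus strand, at chr16:77598940-77598961, chr16:77599672-77599693 and chr16:77646279-77646300.
mmu-miR-99a-5p: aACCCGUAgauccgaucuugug
mmu-let-7c-5p: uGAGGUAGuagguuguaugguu
mmu-miR-125b-5p: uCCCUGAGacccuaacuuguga
The 3 seeds differed from each other. The 3 precursor genes lie in introns of Mir99ahg and had 0 counts in every library, so the host transcript was the measured readout and the microRNAs themselves were not.

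Promoters were taken from the same RefSeq build as 300 bases, 250 before and 50 after an annotated start, and 5 of the 6 RNAs had an entry. The 3 RNAs picked for their lower levels are printed in the direction of transcription, with CCAAT or its reverse complement ATTGG in capitals. Their positions are chr19:5802623-5802922 on the minus strand (Malat1), chr16:77329078-77329377 on the plus strand (Mir99ahg) and chr7:143296498-143296797 on the minus strand (Kcnq1ot1).
Malat1: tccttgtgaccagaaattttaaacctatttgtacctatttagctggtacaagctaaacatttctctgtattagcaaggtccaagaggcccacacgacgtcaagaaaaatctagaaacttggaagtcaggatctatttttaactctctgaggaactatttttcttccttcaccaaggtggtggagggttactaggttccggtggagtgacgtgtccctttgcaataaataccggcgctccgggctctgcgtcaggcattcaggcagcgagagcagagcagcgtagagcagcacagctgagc
Mir99ahg: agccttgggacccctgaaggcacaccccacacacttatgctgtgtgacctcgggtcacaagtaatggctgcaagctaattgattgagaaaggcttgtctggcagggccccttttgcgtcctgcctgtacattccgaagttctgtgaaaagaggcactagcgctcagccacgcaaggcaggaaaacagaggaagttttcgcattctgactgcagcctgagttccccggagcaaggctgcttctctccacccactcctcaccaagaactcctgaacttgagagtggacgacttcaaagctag
Kcnq1ot1: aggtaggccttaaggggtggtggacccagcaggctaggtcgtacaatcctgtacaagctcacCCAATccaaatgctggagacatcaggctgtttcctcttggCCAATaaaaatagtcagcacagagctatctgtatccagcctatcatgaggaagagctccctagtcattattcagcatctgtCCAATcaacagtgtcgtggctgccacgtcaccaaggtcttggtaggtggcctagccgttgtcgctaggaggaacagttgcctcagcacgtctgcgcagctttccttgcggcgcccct
Kcnq1ot1 held 3 matches and the other two none. At least 1 match was present in 37.4% of the 32851 promoters of this length. The promoters held 10, 8 and 9 CG dinucleotides, against a median of 7 over all promoters. On both strands, the E-box CACGTG (in 7.15% of all promoters), the TATA box TATAAA (13.6%), the GC box GGGCGG (35.7%), the cAMP response element TGACGTCA (1.79%) and the NRF1-type motif CGCATGCG (1.87%) had no match in any of the 3, which says only that these letters are not in these windows. The RefSeq start of Mir99ahg lies inside the longer GENCODE gene.

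For the snoRNA hosts the feature of interest is the pyrimidine run at the start of the RNA. The windows hold 20 bases before the annotated start and 20 from it, on the plus strand of chromosomes 1 and 19, with the run in capitals.
Gas5: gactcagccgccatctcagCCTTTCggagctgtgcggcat
Snhg1: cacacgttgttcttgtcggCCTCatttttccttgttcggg
In Gas5 the run was 6 bases long, and it came from the RefSeq start whose 300-base promoter is chr1:161034916-161035215. The other RefSeq start of Gas5, with the promoter chr1:161034351-161034650, had a run of 3. In Snhg1 it was 4 bases long, in the promoter chr19:8723237-8723536. Runs beginning with C were common in such windows: 29.4% of all promoters held one of 6 bases or longer and 67.2% one of 4 or longer. Mir99ahg, which hosts no snoRNA, had the longest run of these RNAs (9 bases), beginning 13 bases before its start. The Gas5 promoters held 33 (first start) and 19 CG dinucleotides and the Snhg1 promoter 25, more than the 3 above.

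The genes differed in size and abundance. On GRCm38 with GENCODE M21, Malat1 (ENSMUSG00000092341) is a lincRNA of 1 merged exon at chr19:5795690-5802672, minus strand. Neat1 (ENSMUSG00000092274) lies 22036 bases away at chr19:5824708-5845478, on the same strand. Kcnq1ot1 (ENSMUSG00000101609, chr7:143203458-143296549, minus strand) is one unspliced exon of 93092 bases inside Kcnq1. Mir99ahg (ENSMUSG00000090386, chr16:77236317-77773427, plus strand) spans 537111 bases with 14303 exonic bases. Gas5 (ENSMUSG00000053332, chr1:161034422-161038539) and Snhg1 (ENSMUSG00000108414, chr19:8723475-8726443) are short genes on the plus strand. As CPM per kilobase of exon (RPKM), Gas5 had the highest mean level over the 24 libraries (88.8), followed by Malat1 (57.4), Snhg1 (7.77), Neat1 (1.37), Mir99ahg (0.887) and Kcnq1ot1 (0.257). By mean CPM, which favours long genes, Malat1 ranked 326th and Gas5 438th among the genes tested.

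In P28 cells the nuclear, imprinted and microRNA-host transcripts were far lower with MLL-ENL than in WT. Malat1 was at 764, 626, 575 and 367 CPM in the 4 P28 WT libraries, at 146, 75.2, 85.5 and 115 with E10.5 induction, at 141, 104, 161 and 118 with P0 induction, and at 85.2, 236, 377 and 495 in RLT Vav Txp. The E10.5-induced and P0-induced groups lay wholly below WT, and RLT Vav Txp overlapped with all 3. The fitted log2 differences from WT were -2.47 (SE 0.49), -2.15 (SE 0.48) and -0.97 (SE 0.47), where CPM are scaled by trimmed mean of M-values (TMM) and the model is edgeR's.

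Neat1 was at 33.3, 35.0, 35.0 and 31.8 CPM in P28 WT, at 4.09, 4.65, 5.41 and 11.4 with E10.5 induction, at 16.0, 16.2, 15.9 and 13.8 with P0 induction, and at 10.4, 30.98, 35.4 and 30.2 in RLT Vav Txp. E10.5-induced libraries were the lowest, P0-induced ones intermediate, and 3 of 4 RLT Vav Txp libraries lay close to WT. The log2 differences from WT were -2.40 (SE 0.33), -1.12 (SE 0.31) and -0.34 (SE 0.31).

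Kcnq1ot1 was at 24.3, 37.4, 35.1 and 33.7 CPM in P28 WT, at 3.11, 4.18, 6.55 and 3.57 with E10.5 induction, at 8.71, 8.06, 7.49 and 5.24 with P0 induction, and at 9.11, 12.8, 11.0 and 25.1 in RLT Vav Txp. Only the fourth RLT Vav Txp library reached the WT range. The log2 differences were -2.90 (SE 0.31), -2.14 (SE 0.30) and -1.17 (SE 0.29).

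Mir99ahg was at 29.9, 26.8, 42.8 and 25.9 CPM in P28 WT, at 4.25, 3.35, 4.46 and 2.15 with E10.5 induction, at 5.56, 3.94, 6.49 and 4.96 with P0 induction, and at 3.67, 6.95, 4.48 and 11.6 in RLT Vav Txp. It was the one RNA of the 6 that lay below every WT library in all 12 MLL-ENL libraries at P28. The log2 differences were -3.14 (SE 0.37), -2.58 (SE 0.36) and -2.23 (SE 0.35), or 8.81-fold, 5.99-fold and 4.70-fold lower than in WT.

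The snoRNA hosts differed less. Gas5 was at 497, 546, 425 and 320.1 CPM in P28 WT, at 173, 188, 195 and 295 with E10.5 induction, at 278, 254, 248 and 235 with P0 induction, and at 224, 420.2, 474 and 445 in RLT Vav Txp. The E10.5-induced and P0-induced groups lay below WT and RLT Vav Txp overlapped with it. Its log2 differences were -1.07 (SE 0.27), -0.82 (SE 0.27) and -0.19 (SE 0.27).

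Snhg1 was at 17.9, 28.9, 22.3 and 13.4 CPM in P28 WT, at 9.55, 11.2, 7.93 and 18.3 with E10.5 induction, at 18.3, 19.2, 20.8 and 19.6 with P0 induction, and at 15.3, 42.5, 48.4 and 38.8 in RLT Vav Txp. All 3 MLL-ENL groups overlapped with WT, and 3 of 4 RLT Vav Txp libraries were above every WT library. Its log2 differences were -0.81 (SE 0.37), -0.08 (SE 0.37) and 0.82 (SE 0.37).

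Counted over RNAs, 5 of 6 lay wholly below P28 WT with E10.5 induction, where 11.6% of all genes tested did. With P0 induction it was 5 of 6 (10.4% of all genes), and in RLT Vav Txp 1 of 6, Mir99ahg (4.45%). These counts use the contrasts that chose the genes. Single libraries showed the same order: those with E10.5 induction had 6, 6, 6 and 5 RNAs below the lowest WT library and those with P0 induction 5 each. RLT Vav Txp replicates 1 to 4 had 5, 4, 2 and 2, so replicate 1 stood nearest to the other MLL-ENL groups.

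**Figure D1:**
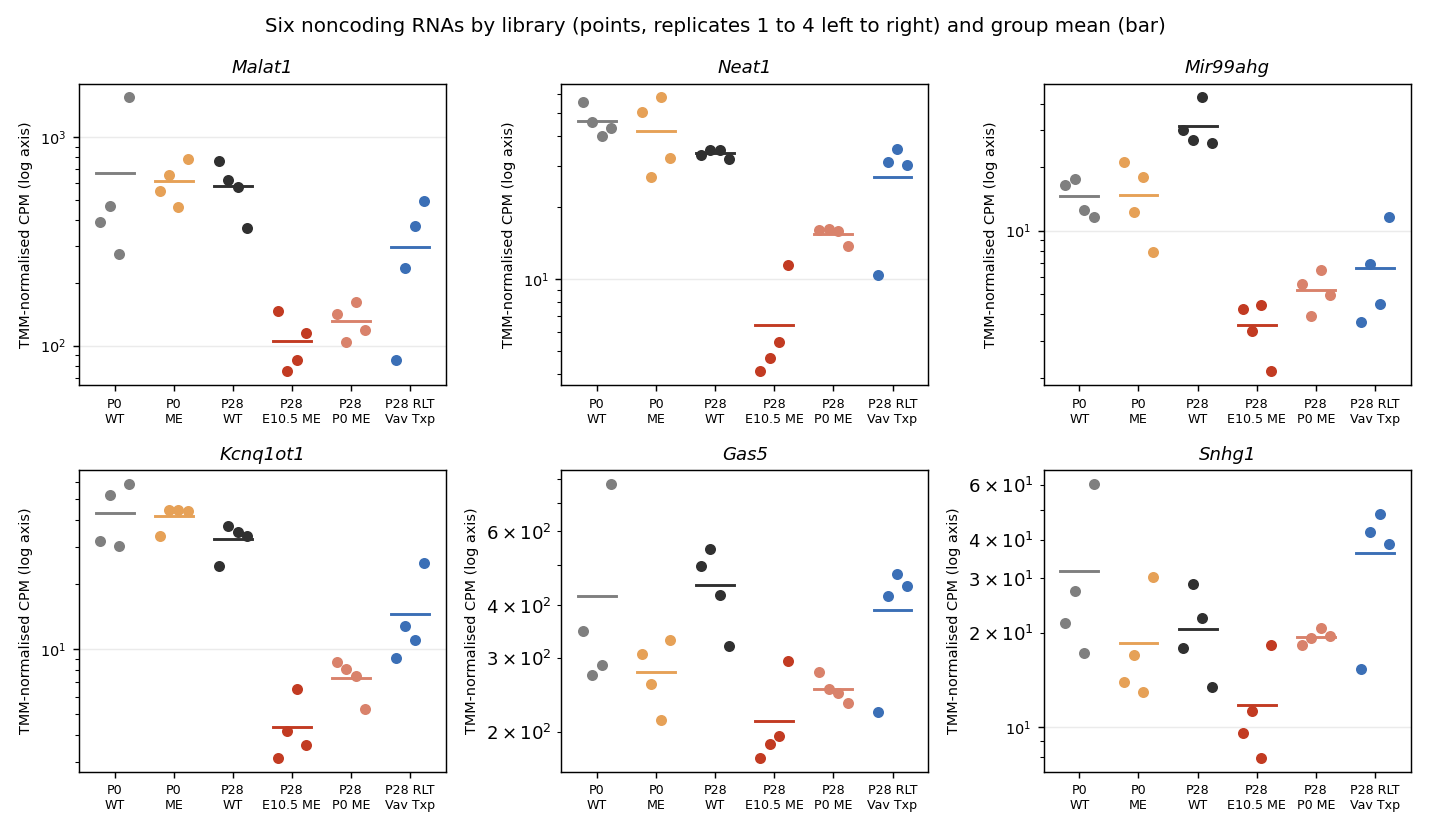
TMM-normalised CPM of the 6 RNAs on log axes, with 1 point per library (replicates 1 to 4 from left to right) and a bar at each group mean, n = 4. Malat1, Neat1, Mir99ahg and Kcnq1ot1 sit lowest in the E10.5-induced group at P28, and Malat1 in P0 WT replicate 4 stands at 1551.

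The comparison of P0 ME with P0 WT asks whether the RNAs already differ at birth, and it shares no library with the contrasts that chose them. Here 0 of 6 passed edgeR's quasi-likelihood test at an adjusted p under 0.05, where 0.642% of all genes did. Malat1 was at 390.5, 468, 275 and 1551 CPM in P0 WT and at 552, 656, 461 and 785 in P0 ME, a log2 difference of -0.13 (SE 0.46, adjusted p 0.938). The WT range enclosed the ME range because of WT replicate 4, and without that library the log2 difference was 0.66. Kcnq1ot1 was at 31.7, 51.9, 30.2 and 58.6 CPM in P0 WT and at 33.7, 44.3, 44.3 and 43.7 in P0 ME, a log2 difference of -0.05 (SE 0.29, adjusted p 0.960).

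Neat1 was at 55.3, 45.8, 39.99 and 43.3 CPM in P0 WT and at 50.6, 26.8, 58.1 and 32.1 in P0 ME, a log2 difference of -0.14 (SE 0.31, adjusted p 0.891). Mir99ahg was at 16.4, 17.6, 12.5 and 11.6 CPM in P0 WT and at 21.1, 12.3, 18.0 and 7.95 in P0 ME, a log2 difference of 0.03 (SE 0.34, adjusted p 0.983). The groups overlapped for both, and ME spread more widely than WT. Gas5 was at 347, 273, 289 and 778 CPM in P0 WT and at 307, 260.1, 214 and 332 in P0 ME, a log2 difference of -0.60 (SE 0.27, adjusted p 0.311). Snhg1 was at 21.6, 27.4, 17.3 and 60.4 CPM in P0 WT and at 14.0, 17.0, 13.0 and 30.3 in P0 ME, a log2 difference of -0.77 (SE 0.37, adjusted p 0.348). Both snoRNA hosts were highest in replicate 4 of each group. DESeq2, limma voom and each of the other alternatives also called 0 of 6, as did every fit that left out 1 library, while over all genes 3251 had an unadjusted p under 0.05.

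Between P0 and P28, the 4 nuclear, imprinted and microRNA-host transcripts fell in E10.5-induced ME cells. The P28 libraries are also part of the contrast that chose the genes, so this count is not independent of the choice. Kcnq1ot1 fell by 3.25 on the log2 scale (SE 0.32, adjusted p 4.14e-07 by edgeR), or 9.51-fold. Neat1 fell by 2.72 (SE 0.33, adjusted p 8.31e-06), Malat1 by 2.54 (SE 0.49, adjusted p 1.37e-03) and Mir99ahg by 2.06 (SE 0.35, adjusted p 2.94e-04). For each of these 4 the P28 range lay below the P0 range, which held for 11% of all genes. The 4 calls of 6 stand beside 18.2% of all genes called, and 8.45% of all genes called lower. The count was 4 in every alternative and in every fit without 1 library. How many of all genes those fits called is not given here. Gas5 (log2 difference -0.39, SE 0.27, adjusted p 0.341) and Snhg1 (-0.66, SE 0.37, adjusted p 0.228) did not pass the test.

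In WT cells 1 RNA was called over the same interval. The P28 WT libraries also took part in the choice, which favours RNAs high in them, so this test is not independent of it either. Mir99ahg rose from a mean of 14.5 CPM (SD 2.92, n = 4) at P0 to 31.3 (SD 7.83, n = 4) at P28, a log2 change of 1.11 (SE 0.34, adjusted p 0.0438 by edgeR), and the ranges did not overlap, as for 4.89% of all genes in this direction. It was the 1 RNA of 6 called, where 7.68% of all genes were, 3.12% higher. The call is at the edge of the threshold: over the 8 fits that left out 1 library its adjusted p ran from 0.0488 to 0.157, and it was kept only without P0 WT replicate 1. In ME cells Mir99ahg fell over this interval, so the 2 genotypes moved in opposite directions. The difference between these changes contains the contrast that chose the gene and was not tested.

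In WT, Neat1 lay below its P0 range at P28 (33.8 against 46.1 CPM on average), as 4.38% of all genes did, but did not pass the test (log2 difference -0.45, SE 0.31, adjusted p 0.435). Kcnq1ot1 (-0.40, SE 0.29, adjusted p 0.459), Snhg1 (-0.62, SE 0.37, adjusted p 0.353), Malat1 (-0.20, SE 0.46, adjusted p 0.858) and Gas5 (0.08, SE 0.27, adjusted p 0.905) overlapped between the ages.

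RLT Vav Txp cells were set against ME cells induced at the same age, E10.5, to ask what the RLT Vav Txp state changes. These libraries also took part in the contrasts that chose the RNAs, which favours RNAs low in E10.5-induced ME, so the count and its p-values are not independent of the choice. Of the 6 RNAs, 5 were higher in RLT Vav Txp by edgeR, where 8.5% of all genes were called higher and 17.9% either way. Neat1 was 4.19-fold higher (log2 2.07, SE 0.32, adjusted p 0.000146) and Kcnq1ot1 3.32-fold higher (log2 1.73, SE 0.30, adjusted p 0.000427), and Kcnq1ot1 was the 1 of 6 with ranges that did not overlap, where 11.6% of all genes lay wholly higher. Snhg1 rose by 1.63 (SE 0.38, adjusted p 0.00495), Malat1 by 1.499 (SE 0.47, adjusted p 0.0333) and Gas5 by 0.88 (SE 0.27, adjusted p 0.0274) on the log2 scale. Mir99ahg did not pass the test (0.91, SE 0.34, adjusted p 0.0664).

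How many were called depended on single libraries. RLT Vav Txp replicate 1 was the lowest of its group for Malat1, Neat1, Kcnq1ot1, Mir99ahg, Gas5 and Snhg1, and without it all 6 were called. Leaving out E10.5-induced replicate 2 or 3, or RLT Vav Txp replicate 2, 3 or 4, left 3 called. Shares of all genes called in these fits are not given here, so the counts are not set against them. Malat1 lost the call in 6 of these fits and Gas5 in 6, whereas Neat1, Kcnq1ot1 and Snhg1 passed the test in all 8. Macrophage markers moved with the same comparison (660 to 2632 CPM in RLT Vav Txp, 35.4 to 55.2 in E10.5-induced ME), and RLT Vav Txp replicate 1 had the highest macrophage sum. Their part in the result was not tested.

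For RLT Vav Txp against P0-induced ME, the part of macrophage markers was likewise not tested. The count is again not independent of the choice and depended on single libraries. There Kcnq1ot1 alone was called higher in RLT Vav Txp (log2 0.97, SE 0.29, adjusted p 0.0314 by edgeR), where 11.7% of all genes were called and 6.75% higher. Its ranges did not overlap, as for 11.6% of genes in this direction. Malat1 (1.18, SE 0.47, adjusted p 0.110), Snhg1 (0.90, SE 0.37, adjusted p 0.120), Neat1 (0.79, SE 0.31, adjusted p 0.103), Gas5 (0.62, SE 0.27, adjusted p 0.138) and Mir99ahg (0.35, SE 0.34, adjusted p 0.563) did not pass the test. Without RLT Vav Txp replicate 1 the count was 5. Without RLT Vav Txp replicate 4, or any 1 of the P0-induced libraries, it was 0, and the Kcnq1ot1 difference fell to 0.57 without that replicate 4. For these fits too, the shares of all genes called are not given here.

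The comparison of the 2 ages of induction reuses libraries of the choice as well. At P28, 0 of 6 RNAs differed between P0-induced and E10.5-induced cells by edgeR, where 0.0477% of all genes were called and 998 genes had an unadjusted p under 0.05. All 6 fitted values were above 0. Neat1 had the largest, 1.28 (SE 0.32, adjusted p 0.234), and its ranges did not overlap, as for 4.58% of all genes in this direction. DESeq2 called 1 of 6, limma voom 3 and edgeR on these groups alone 2, with Neat1 in each. The 0.0477% is the share in the main fit. The shares of all genes called in these other fits are not given here. Without E10.5-induced replicate 4, in which Neat1 was at 11.4 CPM against 4.09 to 5.41 in the other three, edgeR also called Neat1 (log2 1.71, adjusted p 0.0242). Snhg1 (0.73, SE 0.37), Kcnq1ot1 (0.76, SE 0.29), Mir99ahg (0.56, SE 0.34), Malat1 (0.32, SE 0.47) and Gas5 (0.25, SE 0.27) had adjusted p-values of 0.989 or 1.000.

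**Figure D2:**
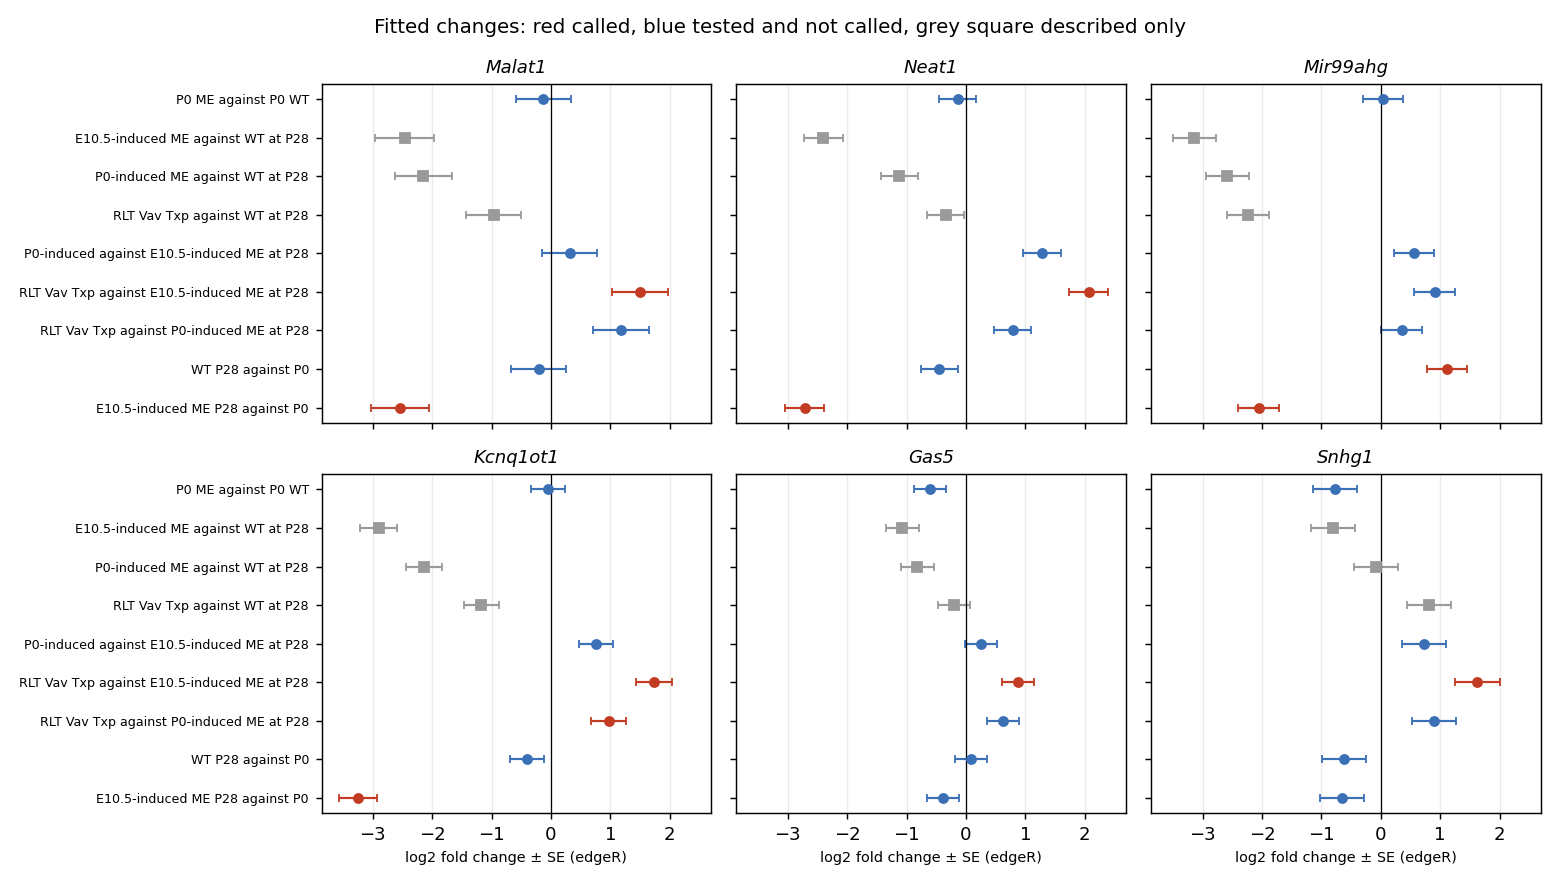
Fitted log2 fold changes with standard errors for the 6 RNAs in 9 comparisons of groups of 4 libraries, the first group named over the second. Red circles passed edgeR's test, blue circles did not, and grey squares are the contrasts used to choose the genes, such as Mir99ahg at -3.14 in E10.5-induced ME.

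Ordered by group mean, Malat1, Neat1 and Kcnq1ot1 followed one sequence: P0 WT, P0 ME, P28 WT, RLT Vav Txp, P0-induced and E10.5-induced ME. Most neighbours in that order overlapped. The steps without overlap were P0-induced over E10.5-induced for Neat1 and RLT Vav Txp over P0-induced for Kcnq1ot1. Mir99ahg began with P28 WT and had steps without overlap from P28 WT to P0 ME and from P0 WT to RLT Vav Txp. The latter gap was very narrow: the lowest P0 WT library was at 11.59 CPM and the highest RLT Vav Txp library at 11.58. P0 ME reached down to 7.95 and overlapped with RLT Vav Txp. For Gas5, highest in P28 WT, and Snhg1, highest in RLT Vav Txp, every neighbour overlapped. E10.5-induced ME at P28 was last for all 6.

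The spread within groups differed by RNA and group. Neat1 varied by 4.50% (SD over mean, n = 4) in P28 WT and by 52.9% in E10.5-induced ME. Malat1 varied by 88.2% in P0 WT, where replicate 4 was far above the others, and by 59.5% in RLT Vav Txp. P0-induced ME was the most even group for Gas5 (7.09%) and Snhg1 (5.29%). Over all 24 libraries Malat1 spanned 20.6-fold from lowest to highest and Gas5 4.49-fold.

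The RNAs also resembled some genes more than others across the 24 libraries. Likeness was measured as the root mean square difference of log2 CPM after centring each gene on its own mean. The search covered 9685 genes whose log2 CPM averaged 3 or more. It left out unnamed genes, gene models named Gm or Rik, immunoglobulin and T cell receptor genes, Xist and some Y-linked genes. All values share the same libraries and depth. The 3 genes nearest to Malat1 were mt-Rnr1 (0.39), the small mitochondrial ribosomal RNA, mt-Co3 (0.41) and mt-Co2 (0.41), subunits of cytochrome c oxidase. Nearest to Kcnq1ot1 were mt-Nd1 (0.62) and mt-Nd5 (0.62), subunits of complex I, and then Malat1 (0.63). Mir99ahg had no close match among the genes searched. Its nearest were Vamp1 (0.68), Ino80dos (0.71) and mt-Co1 (0.73), against 1.15 for its own spread around its mean.

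Neat1 was nearest to Snhg20 (0.41), a snoRNA host, and Firre (0.53), a nuclear noncoding RNA of the X chromosome, then Ankrd16 (0.56). Gas5 was nearest to Sdhaf4 (0.20), a mitochondrial assembly factor, and the ribosomal protein genes Rpl36a (0.20) and Rps27 (0.21). Snhg1 was nearest to Epb41l4aos (0.33), Smim4 (0.34) and Snhg6 (0.34), the first and last of them snoRNA hosts. Among the 15 pairs of the 6 RNAs, Gas5 and Snhg1 were most alike (0.42), and then Malat1 and Kcnq1ot1 (0.63). Malat1 and Neat1, neighbours on chromosome 19, differed by 0.72, and Mir99ahg and Snhg1 were the least alike pair (1.26).

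**Figure D3:**
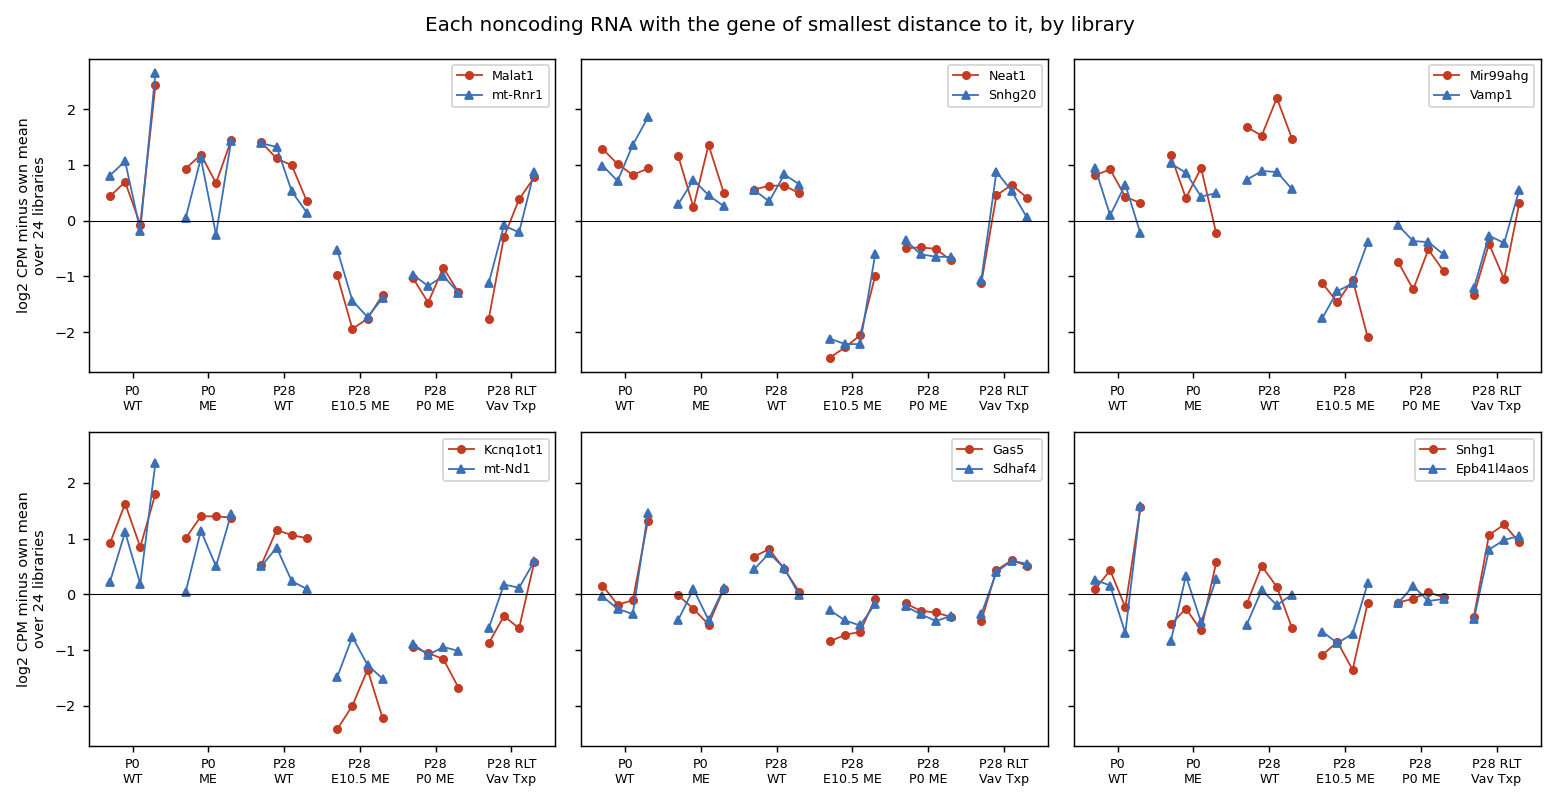
Log2 CPM minus the gene's own mean over 24 libraries, for each of the 6 RNAs (red circles) and the gene nearest to it (blue triangles), with replicates 1 to 4 joined within each group. Malat1 and mt-Rnr1 are both highest in P0 WT replicate 4 and lie apart in P0 ME replicates 1 and 3, while Mir99ahg lies above Vamp1 in all 4 P28 WT libraries.

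Whole classes of transcripts moved with the same libraries. Mitochondrially encoded genes took 1.32% to 2.15% of counts in P28 WT, 0.371% to 0.520% with E10.5 induction and 0.500% to 0.623% with P0 induction. In RLT Vav Txp the share was 0.560% in replicate 1 and 1.13% to 1.61% in the others, and in P0 WT it was 1.07% to 3.46%, highest in replicate 4. Genes classed as lincRNA took 0.293% to 0.366% in P28 WT and 0.164% to 0.200% with E10.5 induction, and antisense genes 0.148% to 0.184% and 0.0818% to 0.105%. At P28 the libraries with low Malat1 were thus also the ones with low mitochondrial, lincRNA and antisense shares, RLT Vav Txp replicate 1 included. The lincRNA share includes Malat1 and Neat1, and the antisense share includes Kcnq1ot1, so part of this likeness is built in. The 6 RNAs together made up 0.0839% to 0.147% of counts in P28 WT and 0.0270% to 0.0453% with E10.5 induction. The part of these library-wide shares in the results for the 6 RNAs was not tested.

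**Figure D4:**
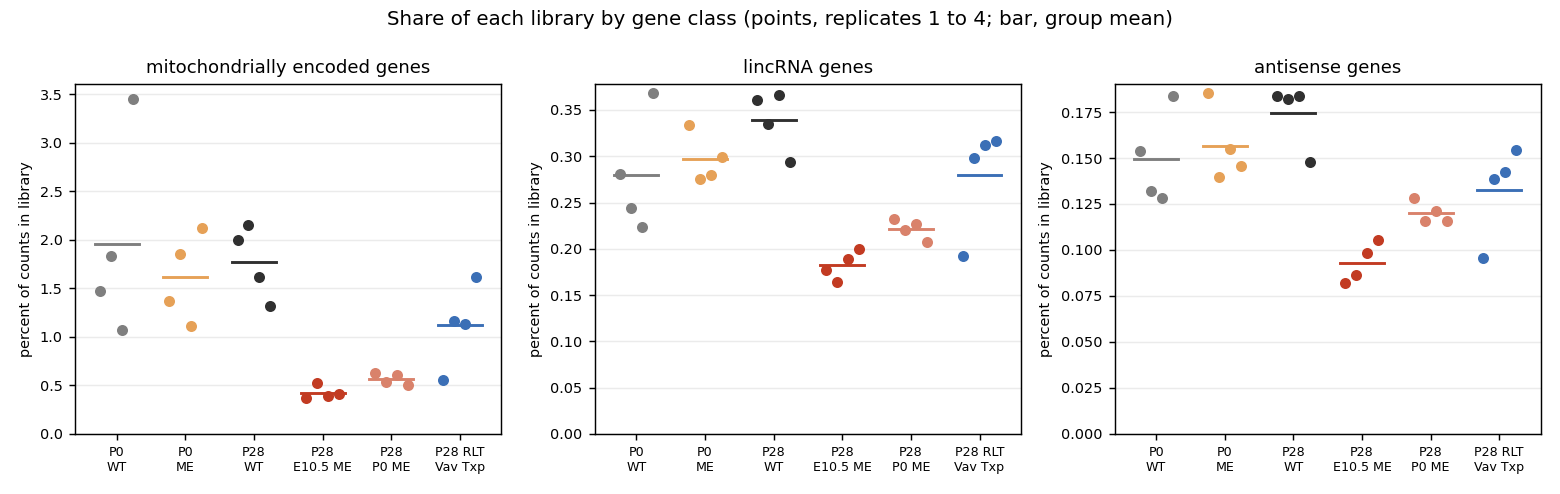
Percent of each library's counts in mitochondrially encoded, lincRNA and antisense genes, with 1 point per library and a bar at the group mean, n = 4. All 3 shares are lowest in E10.5-induced ME at P28, where the mitochondrial share is 0.371% to 0.520%, and RLT Vav Txp replicate 1 lies below the rest of its group.

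The strand setting of the counting is not given in the sources used here, so reads from overlapping genes on opposite strands may not be separated. Kcnq1 shares 121 exonic bases with Kcnq1ot1 and was at most at 15.0 CPM, in P0 WT, and at 0.166 or less in the E10.5-induced ME group at P28. Zbtb37 overlaps Gas5 on the opposite strand with no shared exonic base and was at 5.46 CPM or less. Within Gas5, 10 annotated snoRNA features, and within Snhg1 another 8, had 0 counts in every library. Each of these features lies on its host's strand, wholly inside the host's merged exons. The handling of reads shared by genes is not given, so the zeros are not read as absence of the snoRNAs. Inside Mir99ahg lie 18 annotated features, of which 7 reached 10 counts in at least 4 libraries: Gm21816, Gm38071, 9430053O09Rik, Gm36963, Gm37606, C130023A14Rik and 9530003O04Rik. Between P0 and P28 in E10.5-induced ME, none of these 7 was called by edgeR, with fitted log2 differences from -6.99 to -0.02 and standard errors of 1.69 to 2.59, so a difference of the size of that of Mir99ahg (-2.06) lies within their spread. Gm37063, a sparser feature named here after its value was seen, was called lower (adjusted p 0.0356).

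Nearest tested genes were examined beside the RNAs. Usp25, a deubiquitinase gene beside Mir99ahg, rose by 0.65 (SE 0.21, adjusted p 0.0303 by edgeR) between P0 and P28 in E10.5-induced ME, while Mir99ahg fell. Gm37362, a sparse gene model beside Gas5, was called lower (adjusted p 0.0367). Cdkn1c, the nearest tested gene at higher coordinates than Kcnq1ot1, fell by 1.11 (SE 0.18, adjusted p 0.000152) and fell in WT too, by 0.93 (SE 0.18, adjusted p 0.0017). Frmd8os, Cxadr, Trpm5, Slc3a2 and Wdr74 did not pass the test in E10.5-induced ME.

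The 11 gene lists around these RNAs are described by counts of genes called by edgeR and by the list's median, with no test of the list. They left out the 6 RNAs themselves. The range beside a count is over the 8 fits that left out 1 library of the groups compared. Shares of all genes called in those fits are not given here. In P0 ME against P0 WT, 1 gene of all 11 lists was called, where 0.642% of all genes were. It was Snhg11, a snoRNA host named here after its value was seen. Without 1 library, 0 to 2 of the snoRNA host list and 0 to 4 of the 5′ TOP genes were called there. The counts were 0 to 3 for the nuclear RNA decay factors, 0 to 1 for the Kcnq1ot1 domain and 0 for the other lists.

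The list of snoRNA hosts other than Gas5 and Snhg1 also held Mir17hg, a microRNA host. In it, 8 of 19 tested were lower in E10.5-induced ME than in WT at P28, Mir17hg included, and none higher. Over all genes 12.3% were called. Without 1 library 3 to 7 of the list were called, and 3 to 5 without replicate 1, 2 or 3 of either group. The median log2 difference was -1.003, against -0.10 for all genes. Snhg20 (-2.22, SE 0.38, adjusted p 0.00162) and Mir17hg, which hosts microRNAs (-2.04, SE 0.60, adjusted p 0.0273), had the largest falls allowed by the naming rule. In RLT Vav Txp against E10.5-induced ME 13 of 19 were higher, where 8.5% of all genes were (5 to 14, and 5 to 8 without E10.5-induced replicate 1, 2 or 3 or RLT Vav Txp replicate 2, 3 or 4) and none lower, with a median of 1.61 against 0.12. Snhg15 (1.92, SE 0.36, adjusted p 0.000836) and Snhg20 (1.88, SE 0.37, adjusted p 0.00149) led. In E10.5-induced ME, 8 of 19 fell between P0 and P28, Mir17hg included, where 8.45% of all genes did. Without 1 library 4 to 8 were called, and 4 without P0 ME replicate 2 or P28 replicate 1 or 3. The median was -1.27 against -0.18.

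Other 5′ TOP genes of translation were split. In E10.5-induced ME against WT at P28, 9 of 22 were lower and 3 higher, where 12.3% of all genes were called. Without 1 library 5 to 11 were called, and 5 or 6 without E10.5-induced replicate 1 or 3 or WT replicate 2. The median was -0.36, against -0.10 for all genes. Tpt1, the gene of the translationally controlled tumor protein, fell by 1.04 (SE 0.23, adjusted p 0.00636) and Eef1b2, an elongation factor subunit, by 0.998 (SE 0.27, adjusted p 0.0157), while Ipo7 (0.81, SE 0.17, adjusted p 0.00543) and Pabpc1 (0.67, SE 0.15, adjusted p 0.00681) rose. In RLT Vav Txp against E10.5-induced ME 12 were higher and 2 lower, where 17.9% of all genes were called and 8.5% higher. Without 1 library 4 to 17 were called, and 4 to 9 without any 1 library other than RLT Vav Txp replicate 1. Of 19 nonsense-mediated decay factors, 8 were higher in E10.5-induced ME than in WT at P28 and none lower, where 12.3% of all genes were called. Upf1, the central helicase, was higher by 1.22 (SE 0.32, adjusted p 0.0136) and Dcp1a by 0.93 (SE 0.26, adjusted p 0.0200). The count of decay factors called was 0 without WT replicate 1 or 2, and 4 and 5 without E10.5-induced replicates 2 and 3.

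Genes of nuclear-body proteins were counted separately for paraspeckles and speckles. Of 19 paraspeckle proteins, 8 were higher in E10.5-induced ME than in WT at P28 and none lower, where 12.3% of all genes were called. Without 1 library 4 to 8 were called, and 4 or 5 without E10.5-induced replicate 3 or WT replicate 1 or 2. Rbm14 (1.03, SE 0.21, adjusted p 0.00364) and Smarca4 (1.35, SE 0.30, adjusted p 0.0062) had the largest rises. In E10.5-induced ME, 4 of 19 rose between P0 and P28 and none fell, a share close to the 18.2% of all genes called. Sfpq rose by 0.997 (SE 0.19, adjusted p 0.000755). In RLT Vav Txp against E10.5-induced ME 8 of 19 were lower and none higher, while Neat1 was higher. Over all genes 17.9% were called there. Without 1 library 5 to 9 were called, and 5 without RLT Vav Txp replicate 2, 3 or 4. Of 28 nuclear speckle proteins, 6 were higher and 4 lower in E10.5-induced ME than in WT at P28, where 12.3% of all genes were called. Without 1 library 4 to 9 were called, and 4 to 6 without E10.5-induced replicate 1, 2 or 3 or WT replicate 1 or 2. Srsf4 (0.91, SE 0.25, adjusted p 0.019) and Sf3b1 (0.90, SE 0.20, adjusted p 0.0065) rose, and the splicing kinase Clk1 (-1.02, SE 0.27, adjusted p 0.0137) and Luc7l3 (-0.97, SE 0.24, adjusted p 0.0106) fell. In E10.5-induced ME, 4 speckle genes rose and 5 fell between P0 and P28, where 18.2% of all genes were called.

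In the Kcnq1ot1 imprinted domain, 3 of 17 genes were called in E10.5-induced ME against WT at P28, a share close to the 12.3% of all genes (1 to 3 without 1 library, 1 without E10.5-induced replicate 2 or WT replicate 2 or 3). Osbpl5 rose by 1.30 (SE 0.39, adjusted p 0.0298) and Nap1l4 by 0.60 (SE 0.15, adjusted p 0.0112), and Tspan32 fell by 0.57 (SE 0.15, adjusted p 0.0145). Cdkn1c, which Kcnq1ot1 silences on the paternal chromosome, was at a mean of 18.1 CPM (SD 1.91, n = 4) in P28 WT and 18.6 (SD 0.719, n = 4) with E10.5 induction, where Kcnq1ot1 itself was 7.48-fold lower. The log2 difference of Cdkn1c was 0.03 (SE 0.18, adjusted p 0.931). Of 6 other imprinted noncoding RNAs tested, none was called in this comparison. Between P0 and P28, 4 fell in E10.5-induced ME and 3 in WT. Over all genes, 18.2% and 7.68% were called in these 2 comparisons of ages. Peg13 was lower in RLT Vav Txp than in E10.5-induced ME by 1.23 on the log2 scale (SE 0.19, adjusted p 0.000149), opposite to Kcnq1ot1.

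Relatives and neighbours of Mir99ahg, 7 of 18 tested, gave 1 call in E10.5-induced ME against WT at P28, near the 12.3% of all genes. It was Usp25 (0.90, SE 0.21, adjusted p 0.00707), lost without WT replicate 2. In RLT Vav Txp against E10.5-induced ME 3 of 7 were lower, where 17.9% of all genes were called. The count was 1 without E10.5-induced replicate 3 or RLT Vav Txp replicate 3 or 4. Samsn1 was lower by 0.74 (SE 0.14, adjusted p 0.00126). Among 24 genes of microRNA processing and let-7 control, 7 were higher in E10.5-induced ME than in WT at P28, where 12.3% of all genes were called. Without 1 library 2 to 7 were called, and 2 to 4 without E10.5-induced replicate 2 or 3 or WT replicate 1 or 2. The 7 included Xpo5, the exporter of microRNA precursors (1.16, SE 0.20, adjusted p 0.00206), and Igf2bp2, a let-7 target (1.62, SE 0.35, adjusted p 0.00565). Between P0 and P28, Lin28b, which blocks let-7 maturation, fell in WT (-3.53, SE 0.76, adjusted p 0.00593) and in E10.5-induced ME (-4.27, SE 0.78, adjusted p 0.000851), and Igf2bp3 fell in both (-3.40, SE 0.31, adjusted p 1.92e-07, and -3.24, SE 0.31, adjusted p 3.48e-07). Over that interval Mir99ahg rose in WT and fell in ME.

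Of 23 other noncoding RNAs, 7 were lower in E10.5-induced ME than in WT at P28 and none higher, where 12.3% of all genes were called. Without 1 library 4 to 7 were called, and 4 without E10.5-induced replicate 2. The median was -0.32 against -0.10 for all genes. The largest falls were Mir142hg (-2.97, SE 0.52, adjusted p 0.00206) and Mir155hg (-2.91, SE 0.63, adjusted p 0.00527), which host microRNAs of blood cells. In E10.5-induced ME, 9 fell between P0 and P28 and 1 rose (6 called without P28 replicate 2), where 18.2% of all genes were called. The rise was AW112010, by 2.01 (SE 0.28, adjusted p 2.79e-05), opposite to Malat1 and Neat1. AW112010 rose in WT too, by 2.95 (SE 0.29, adjusted p 3.07e-07), and 2 RNAs of the list fell there. Of 26 factors of RNase P, 3′ end formation and nuclear RNA decay, 7 were higher and 2 lower in E10.5-induced ME than in WT at P28. Over all genes 12.3% were called there. Without 1 library 3 to 8 of the list were called, and 3 to 5 without replicate 1, 2 or 3 of either group. Mtrex, the helicase of the nuclear exosome, rose by 0.92 (SE 0.21, adjusted p 0.00681) and Pabpn1 fell by 0.82 (SE 0.23, adjusted p 0.0218).

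**Figure D5:**
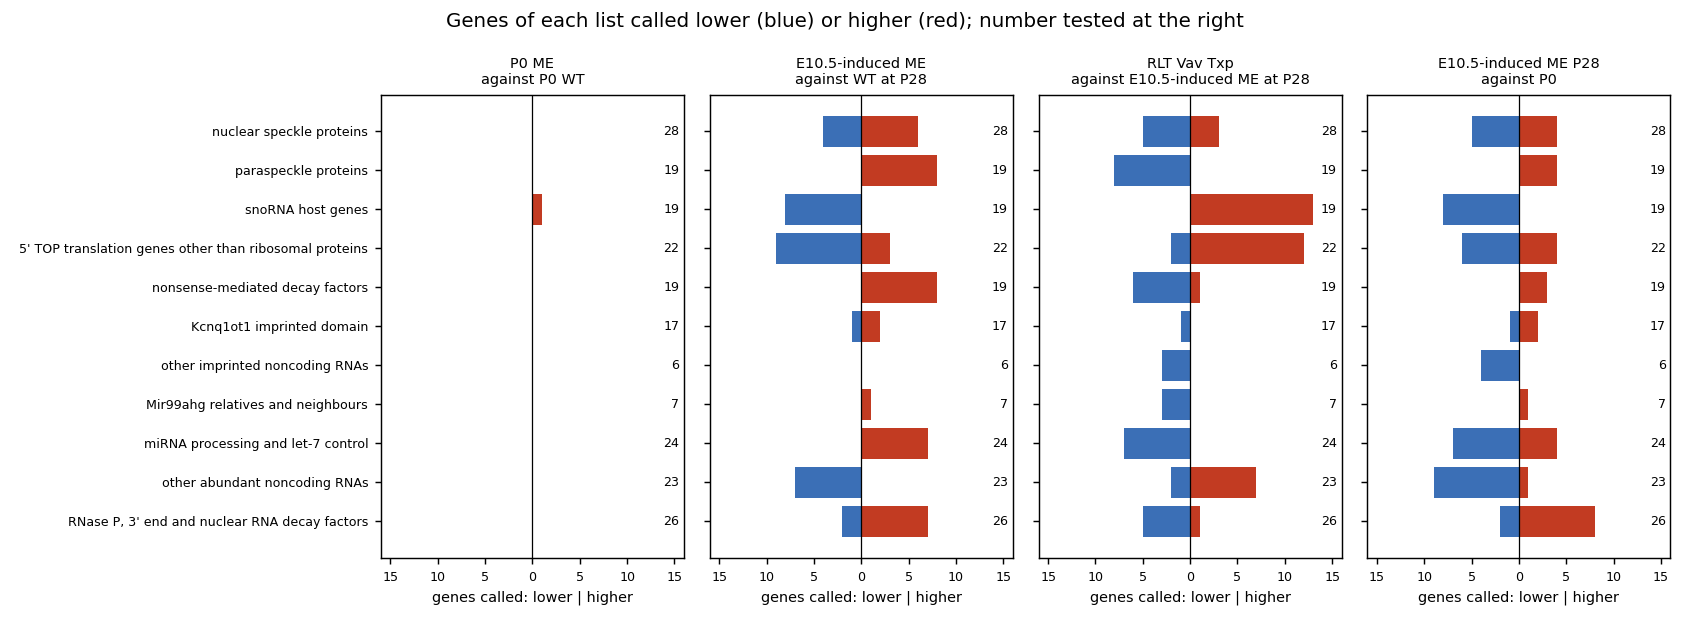
Number of genes of each of 11 lists called lower (blue, to the left) or higher (red, to the right) by edgeR in 4 comparisons, with the number tested at the right edge. The snoRNA host list, which also holds the microRNA host Mir17hg, has 8 lower calls in E10.5-induced ME against WT at P28. It has 13 higher calls in RLT Vav Txp against E10.5-induced ME. Over all genes, 12.3% and 17.9% were called in these comparisons.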

How the data were processed

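Sorted progenitors of 6 groups of 4 mouse samples were sequenced as bulk RNA after SMARTer amplification, per the labels' protocols. The deposited values are whole-number read counts per gene. The submitters' processing notes name STAR 2.7.9a, Subread, featureCounts 2.0.3 and GRCm38. The strand setting and the handling of reads shared by genes are not given in the sources used here. Of 55774 entries, 287 repeats of an identifier with identical counts were dropped.

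Samples were grouped by their titles. The members and lists were chosen with earlier results of these data known. Counts of 23059 genes that passed filterByExpr (minimum count 10) were fitted with edgeR 4.0.16 (R 4.3.3), using TMM factors, 1 robust quasi-likelihood model over 24 libraries (18 residual degrees of freedom) and Benjamini-Hochberg adjustment over all genes, with calls at an adjusted p under 0.05. SE is the log2 fold change over the root of F. Levels are TMM-normalised CPM, with a prior count of 2 on the log2 scale. Alternatives were DESeq2 1.42.0, limma 3.58.1 (voom), other scalings and filters, the compared groups alone, a replicate block and fits without each library in turn. The fit was tested on simulated data. The genes named are the 6 RNAs, at most 2 largest called rises and 2 falls per list and comparison (mean log2 CPM of at least 1), overlapping genes with 10 counts in 4 libraries, nearest tested neighbours (some are not reported here), the 3 most alike genes, and Kit and Ly6a as checks of the sort. Gene positions are from GENCODE M21 and sequences from RefSeq GRCm38.p6. Depth was 31233688 to 89774511 counts per library.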

Additional observations from a re-analysis of the deposited data

Results flagged for a closer look

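In 36 groups of 4 libraries (6 RNAs in 6 groups), 4 had 1 library far from the other three, by the gap to its nearest neighbour over the group's range. Chance flags about 1 in 20 such groups. Malat1 in P0 WT replicate 4 was at 1551 CPM and Gas5 in the same library at 778 CPM, both above the rest of the group. Kcnq1ot1 in P0 ME replicate 1 was at 33.7 CPM, below the other three, and Neat1 in P28 P0-induced ME replicate 4 was at 13.8 CPM, below the other three. P0 WT replicate 4 also had the highest mitochondrial share of the 24 libraries (3.46%).

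Mir99ahg moved in opposite directions between P0 and P28 in the 2 genotypes. By mean log2 CPM it was higher at P28 by 1.10 in WT and changed by -2.01 in E10.5-induced ME. The difference between the genotypes was not tested.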

How the results depend on the processing

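The 4 calls between P0 and P28 in E10.5-induced ME and the 0 calls at P0 held in every alternative. The P28 libraries behind the 4 calls also took part in the choice of genes, so their persistence is not independent of it. Between P0-induced and E10.5-induced ME, 1 of 6 RNAs was called by DESeq2, 3 by limma voom, 2 with the compared groups alone, and 0 to 1 without 1 library. For RLT Vav Txp against E10.5-induced ME, 3 to 6 were called without 1 library. Against P0-induced ME, DESeq2 called 2, limma voom 5, the compared groups alone 3, and 0 to 5 without 1 library. In WT between P0 and P28, limma voom, no filter and the compared groups alone each called 0, and 0 to 1 were called without 1 library. The shares of all genes called in these other fits are not given here, so the counts are not set against them.

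Some log2 differences that passed no test changed sign. At P0, Malat1 was at 0.33 with limma voom, 0.018 with plain library totals and -0.42 to 0.66 without 1 library. Kcnq1ot1 at P0 was at 0.039 with library totals and -0.22 to 0.090 without 1 library. Mir99ahg at P0 was at -0.061 with limma voom and -0.19 to 0.19 without 1 library. Between P0 and P28 in WT, Malat1 was at 0.34 with limma voom, 0.044 with library totals and -0.45 to 0.61 without 1 library, and Gas5 at -0.070 to 0.54. Mir99ahg in RLT Vav Txp against P0-induced ME was at -0.055 to 0.55 without 1 library. The cause was not tested.

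Replicate numbers were not taken to pair the samples: 14 of 40 same-numbered pairs had deviations correlated above 0.1 (median 0.03). Differently numbered pairs were not computed for comparison, and whether same-numbered P0 libraries share a preparation was not tested. Between P0 WT and P0 ME the 4 correlations were 0.66, 0.053, 0.37 and 0.46, with 1 below 0.1, and the replicate block called 0 RNAs there. With the replicate block, the Mir99ahg log2 fold change in P0 ME against P0 WT was -0.050, 0 RNAs were called between P0-induced and E10.5-induced ME and 1 in WT between ages. Likeness over 6 group means shared 1 of the 3 nearest genes for Malat1 and Kcnq1ot1, 0 for Gas5, Mir99ahg and Snhg1 and 2 for Neat1.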
